A study of Homo sapiens with 24 samples.

Results

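The comparison set RT-112 cells labelled CD44 High against parental RT-112 cells, over every gene of the count table. It rested on 6 of the 24 libraries of the series: the 3 columns named for the CD44 High line and the 3 named for the parental line. RT-112 is an established human bladder cancer cell line of urothelial origin. The series also holds RT-112 lines labelled CD44 Low and CD44v6 and the same 4 groups in a second bladder cancer line, J82, each with 3 libraries. Parental cells are the starting line and carry the label Control for CD44. CD44 High cells were newly established from the line and are described as having high expression of the CD44 receptor. The labels name no agent, allele or time point, and do not say how the CD44 High line was obtained or whether it came from 1 clone. The replicates are called biological, but no label says that they came from separate cultures. The p-values measure the spread between libraries within groups, pooled over all 12 RT-112 libraries, and this spread may be technical in part. In RNA from bulk cells, more transcript per cell and more cells that express a gene cannot be told apart.

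CD44 is a transmembrane receptor for hyaluronan, a sugar polymer of the extracellular matrix. Its cytoplasmic tail binds the actin linkers ezrin, radixin and moesin, and its isoforms can present growth factors to receptor tyrosine kinases. In the bladder, CD44 is a marker of the basal layer of the urothelium, whose cells attach to the basement membrane through laminin and the integrin of the ITGA6 and ITGB4 chains. The cells above the basal layer express other keratins, among them KRT13 and KRT4, and the surface cells make uroplakins. Growth factor and stress signals switch on immediate-early genes within minutes, and many of these genes encode short-lived transcription factors or feedback inhibitors of the same signals.

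The 6 libraries held between 16913235 and 22311461 counts. Replicates of the parental line lay close together, with a biological coefficient of variation (the spread between replicates beyond counting error) of 0.104, against 0.200 in CD44 High. The CD44 High replicates differed among themselves. On the first principal component of the 12 RT-112 libraries (36.8% of the variance) the parental libraries lay between -8.75 and -2.69, CD44 High replicates 1 and 2 at 21.6 and 28.5, and replicate 3 at 0.37, next to the parental libraries. Genes of mitosis (25 genes, summed) came to 8391, 5714 and 11089 CPM in CD44 High replicates 1, 2 and 3, against 7939 to 8513 CPM in the parental libraries; CPM is the count of a gene scaled to a common library size. Their part in the other differences was not tested. The cells carried epithelial transcripts in every library, with EPCAM at 314 to 348 CPM in parental cells and at 331 to 495 CPM in CD44 High, and CDH1 at 299 to 332 and 287 to 334 CPM. Of 13 immune markers, 10, PTPRC among them, had no count in any of the 6 libraries, and the list summed to 11.1 to 13.1 CPM in parental and 7.69 to 13.8 CPM in CD44 High cells. The 8 endothelial markers summed to 4.74 to 5.03 and 3.85 to 8.72 CPM, with 4 of them at 0 in all 6 libraries. The 10 fibroblast markers summed to 304 to 328 and 224 to 297 CPM, most of it from LUM and FBLN1, and 3 of them were at 0 in all 6.

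CD44 itself was measured first, because the line is named for it. Its level was 316, 347 and 293 CPM in the parental libraries and 427, 344 and 498 CPM in CD44 High replicates 1, 2 and 3. Replicates 1 and 3 lay above every parental library, whereas replicate 2 lay within the parental range, so the groups overlapped. The means were 319 ± 27.3 CPM (SD, n = 3) and 423 ± 77.1 CPM, and the log2 fold change was 0.41 (SE 0.15, adjusted p = 0.272 by edgeR's quasi-likelihood test). The transcript thus gave no passing difference between the line labelled High and its parent, while the label refers to the receptor, which was not measured here. Over the 6 fits that each left out 1 library, the log2 fold change ran from 0.28 to 0.52 and the adjusted p from 0.16 to 0.582. CD44 Low cells stood at 138 ± 18.8 CPM in the same fit, and CD44 High cells exceeded them by 1.61 (adjusted p = 7.4e-05). In J82 it rose from 448 ± 46.9 to 734 ± 32.6 CPM (0.71, adjusted p = 0.0355).

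Few genes differed between the lines. At an adjusted p under 0.05 (edgeR quasi-likelihood test, Benjamini-Hochberg over all genes), 80 of 15645 genes tested were called, or 0.511%, with 39 higher (0.249%) and 41 lower (0.262%) in CD44 High. The median log2 fold change over all genes tested was 0.00. All 80 had groups that did not overlap, which held for 2776 genes in all (17.7% of those tested, 9.79% higher and 7.96% lower). The increases were mostly small: 10 of the 39 reached a log2 fold change of 1, and TNFAIP3 led them at 2.12. Of the 41 decreases, 27 were genes of small RNA families and 14 were other genes. The count depended on single libraries: it was 18, 46 and 196 without CD44 High replicate 1, 2 and 3, and 33, 19 and 38 without parental replicate 1, 2 and 3. Without CD44 High replicate 3, the 196 were 1.24% of 15787 tested, with 97 higher (0.614%) and 99 lower (0.627%). Of the 80 genes, 14 passed in all 6 of these fits and 11 in none. DESeq2 called 292 genes, of which 79 were among the 80, and a fit on the 6 libraries alone called 43 (11 higher, 32 lower).

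**Figure D1:**
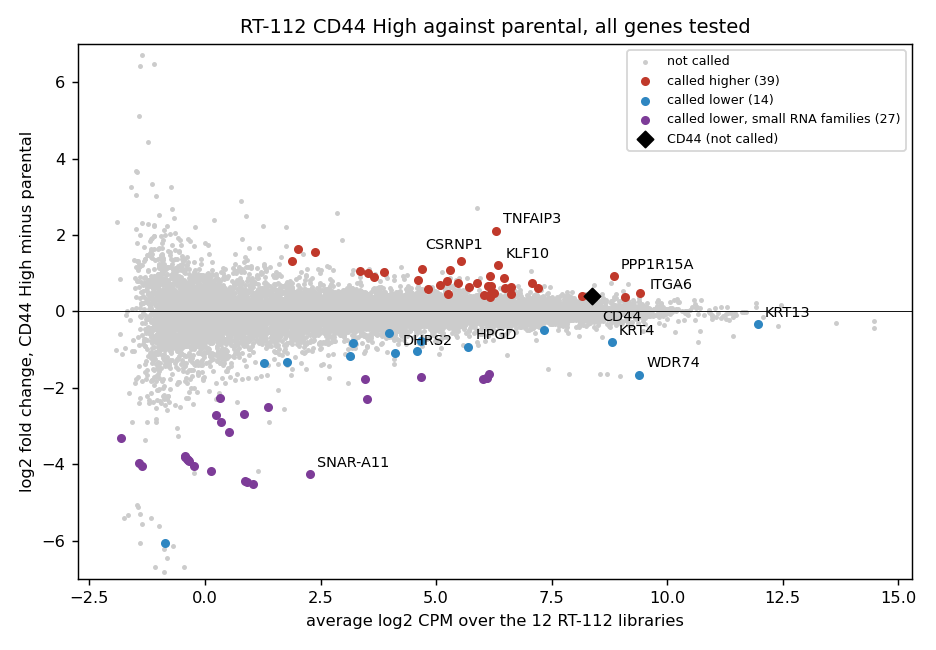
Each point is 1 of the genes tested, with its average log2 CPM over the 12 RT-112 libraries on the x axis and the log2 fold change of CD44 High over parental cells on the y axis; 7 genes with changes beyond the axis are not drawn. The 39 called higher are red, the 14 called lower are blue, the 27 called lower in small RNA families are purple, and CD44, which was not called, is the black diamond at 0.41.

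TNFAIP3 had the largest increase. It encodes A20, a ubiquitin-editing enzyme that is induced by NF-kB and shuts NF-kB signalling down. Its promoter holds a pair of kappa-B matches next to each other, and it is shown for that reason, from the RefSeq promoter table (GRCh38.p14), plus strand, chr6:137867009-137867258, which is the stretch of 250 bases before the annotated start. Capitals mark the kappa-B matches, at -67 to -58 and at -55 to -46 from the start.
TNFAIP3: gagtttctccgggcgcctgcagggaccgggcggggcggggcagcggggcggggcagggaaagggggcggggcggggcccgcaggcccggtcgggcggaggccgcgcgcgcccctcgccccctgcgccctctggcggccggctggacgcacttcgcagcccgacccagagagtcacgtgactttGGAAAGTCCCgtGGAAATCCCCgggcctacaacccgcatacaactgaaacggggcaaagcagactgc
TNFAIP3 was at 45.4, 22.1 and 22.2 CPM in the parental libraries and at 126, 192 and 69.5 CPM in CD44 High. The lowest CD44 High library, replicate 3, still lay above the highest parental library. The log2 fold change was 2.12 (SE 0.37, adjusted p = 0.0255, edgeR), a rise of 4.33-fold. The call was lost without CD44 High replicate 1 or 2 (adjusted p = 0.111 and 0.0622), without parental replicate 2 or 3 (0.179 and 0.168), and in the fit on the 6 libraries alone (0.113).

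TNFAIP3 was the 1 called gene among 27 tested NF-kB targets and chemokines, of which 21 had a log2 fold change above 0 (median 0.23). An unadjusted p under 0.05 (edgeR) was found for 8 of the 27. Over all genes tested, 0.249% were called higher and 12.3% had an unadjusted p under 0.05. NFKBIZ, a nuclear IkB protein that is itself an NF-kB target, was at 119 ± 5.96 and 176 ± 14.2 CPM and missed the threshold (0.56, adjusted p = 0.0516). TNFAIP2 was at 372 ± 12.7 and 324 ± 49.4 CPM (-0.20, adjusted p = 0.424). OTULIN, a deubiquitinase that removes linear ubiquitin chains in the same pathway and is on none of the lists, rose by 0.38 on the log2 scale (SE 0.07, adjusted p = 0.0378), from 61.0 ± 1.56 to 79.6 ± 3.34 CPM. TNFAIP3 was the 1 gene with a kappa-B match among 27 called higher genes with a promoter in the table (3.70%, 95% Wilson interval 0.657 to 18.3), against 7.09% of the 27305 genes with a promoter. Among the higher genes called without CD44 High replicate 3 the share was 8 of 74 (10.8%), so its side of the background turned with 1 library. The window searched ran from 250 bases before to 50 after each annotated start, on both strands. A gene with several promoter entries counted as a match if any of them held one.

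Immediate-early and stress response genes made up the largest listed group among the increases. Of 43 tested, edgeR called 10 higher and none lower, and 26 had an unadjusted p under 0.05. The log2 fold change was above 0 in 37 and below 0 in 6, with a median of 0.44. Over all genes tested, 0.249% were called higher and 0.262% lower, 12.3% had an unadjusted p under 0.05, and the median was 0.00. CSRNP1, a nuclear protein induced by AXIN1 and by cytokines, was at 29.4, 20.14 and 20.05 CPM in parental cells and at 53.7, 63.0 and 55.8 CPM in CD44 High. All CD44 High libraries lay well above the parental ones, and the change was 1.31 (SE 0.17, adjusted p = 0.00425). KLF10, a zinc finger repressor induced by TGF-beta, was at 46.7, 41.4 and 39.0 CPM in parental cells and at 84.4, 116 and 91.8 CPM in CD44 High (1.20, SE 0.18, adjusted p = 0.0109). SGK1, a kinase induced by serum and glucocorticoids, was at 18.6, 11.9 and 15.6 CPM and at 34.5, 32.3 and 32.5 CPM (1.11, SE 0.16, adjusted p = 0.00649). In both genes every CD44 High library exceeded every parental one, and for SGK1 the CD44 High replicates were nearly equal.

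DUSP1, a phosphatase that inactivates p38, JNK and ERK, was at 51.6, 44.0 and 38.1 CPM in parental cells and at 78.0, 96.8 and 80.2 CPM in CD44 High. The change of 0.93 (SE 0.12, adjusted p = 0.00274) passed in all 6 fits that left out 1 library, which among the called higher genes held only for DUSP1 and IRS2. PPP1R15A (GADD34), which directs protein phosphatase 1 to the translation factor eIF2 alpha after stress, was the most abundant of the group, at 307, 269 and 294 CPM and at 604, 598 and 451 CPM. Its CD44 High replicate 3 was the lowest of the 3 and still above all parental libraries, and the change was 0.92 (SE 0.13, adjusted p = 0.00649). FOSB and JUND, both AP-1 transcription factor subunits, rose by 0.89 (adjusted p = 0.0209) and 0.60 (adjusted p = 0.0193). KLF4 and KLF6, Krüppel-like transcription factors, rose by 0.73 (adjusted p = 0.0216) and 0.62 (adjusted p = 0.0365), and TRIB1, a pseudokinase scaffold for protein degradation, by 0.65 (adjusted p = 0.0109).

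The remaining 33 tested genes of the list did not pass, among them FOS, EGR1, MYC, JUNB, BTG2 and JUN. FOS was at 305, 244 and 228 CPM in parental cells and at 353, 352 and 350 CPM in CD44 High (0.44, adjusted p = 0.136). EGR1 was at 9.40 to 12.97 and 11.2 to 23.9 CPM (0.46, adjusted p = 0.551), MYC at 146 to 235 and 211 to 346 CPM (0.51, adjusted p = 0.344), and JUNB at 174 to 199 and 139 to 203 CPM (-0.16, adjusted p = 0.644). BTG2, an antiproliferative p53 target, was at 71.1, 79.5 and 78.1 CPM in parental cells and at 30.3, 42.4 and 57.1 CPM in CD44 High (-0.81, adjusted p = 0.188). JUN was at 182 to 300 and 267 to 311 CPM (0.18, adjusted p = 0.733). The count of 10 depended on single libraries, and was 3, 6 and 14 without CD44 High replicate 1, 2 and 3 and 10, 2 and 4 without parental replicate 1, 2 and 3. DESeq2 called 19 higher and 1 lower, and the fit on the 6 libraries alone 6 higher. Parental replicate 1 had the highest parental level of all 10 called genes of the group.

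The cAMP response element (CRE, TGACGTCA, which reads the same on both strands) was present in the promoters of 4 of the 27 called higher genes with a promoter in the table: DUSP1, IFRD1, JUND and PPP1R15A (14.8%, 95% Wilson interval 5.92 to 32.5). Of all 27305 genes with a promoter, 2.25% hold it. That background includes genes that were not tested here, so the 2 shares are not drawn from like sets of genes. The match is a description of these windows and does not show that a factor binds there. Of these genes DUSP1, JUND and PPP1R15A are on the immediate-early list, and their promoters are shown with the match in capitals, from the RefSeq table (GRCh38.p14), each as the 250 bases before the start. DUSP1 is on the minus strand at chr5:172771196-172771445 with the match at -125 to -118, PPP1R15A on the plus strand at chr19:48872171-48872420 with the match at -58 to -51, and JUND on the minus strand at chr19:18281623-18281872 with the match at -200 to -193.
DUSP1: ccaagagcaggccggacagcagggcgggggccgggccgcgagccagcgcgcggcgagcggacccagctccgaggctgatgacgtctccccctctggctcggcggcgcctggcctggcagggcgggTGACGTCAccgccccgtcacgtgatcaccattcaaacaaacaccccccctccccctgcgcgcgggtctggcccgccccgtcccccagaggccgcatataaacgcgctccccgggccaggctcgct
PPP1R15A: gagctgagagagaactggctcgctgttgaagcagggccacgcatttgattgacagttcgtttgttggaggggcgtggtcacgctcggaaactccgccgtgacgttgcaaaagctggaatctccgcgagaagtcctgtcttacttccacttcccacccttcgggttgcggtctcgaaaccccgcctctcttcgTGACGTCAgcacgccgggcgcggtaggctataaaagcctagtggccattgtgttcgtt
JUND: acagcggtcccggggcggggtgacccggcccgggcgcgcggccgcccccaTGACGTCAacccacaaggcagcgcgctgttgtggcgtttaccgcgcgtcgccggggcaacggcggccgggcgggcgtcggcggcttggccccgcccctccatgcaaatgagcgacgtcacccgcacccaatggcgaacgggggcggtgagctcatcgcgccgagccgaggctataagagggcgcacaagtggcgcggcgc
CArG boxes, the sites of serum response factor, occurred in 1 of the 27 (TES, 3.70% against 1.60% of all genes), overlapping a TEAD match there, and TEAD matches (GGAATG) in 4 (14.8% against 16.7%). Among the 13 called lower genes with a promoter, CNGA1 held a TEAD match and none held one of the other motifs.

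DUSP6 and ERRFI1, on the ERK feedback list, and the EGFR ligand HBEGF rose. Of 17 genes tested on the ERK feedback list these 2 were called and 15 did not pass, and 16 had a log2 fold change above 0 (median 0.32). Of all genes tested 0.249% were called higher, and their median was 0.00. DUSP6, a phosphatase specific to ERK, was at 52.4, 52.2 and 57.9 CPM in parental cells and at 85.3, 83.7 and 87.1 CPM in CD44 High. The 2 groups were each tight and far apart (0.66, SE 0.10, adjusted p = 0.0117). ERRFI1 (MIG6), an inhibitor of the EGFR kinase domain, was at 82.1, 77.5 and 78.6 CPM and at 131, 121 and 120 CPM (0.64, SE 0.10, adjusted p = 0.0153). HBEGF, a ligand of EGFR made as a membrane precursor, was at 30.4, 20.3 and 20.7 CPM and at 51.0, 59.1 and 41.8 CPM (1.09, SE 0.19, adjusted p = 0.0216). It was the 1 called gene of 11 tested in the EGFR family and its ligands, whose median was -0.02. EGFR was at 163 ± 8.54 and 209 ± 20.4 CPM (0.36, adjusted p = 0.227) and ERBB2 at 82.5 ± 4.95 and 80.6 ± 7.02 CPM (-0.04, adjusted p = 0.911). Without CD44 High replicate 1, parental replicate 1 or parental replicate 2, no gene of the ERK feedback list was called.

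ITGA6 and LAMA3, which encode parts of an integrin and of a laminin that bind each other, rose by small amounts. ITGA6, the alpha chain of the laminin-binding integrin, was at 668, 604 and 625 CPM in parental cells and at 970, 778 and 906 CPM in CD44 High (0.49, SE 0.09, adjusted p = 0.0315). LAMA3, the alpha chain of laminin-332, was at 309, 304 and 312 CPM and at 419, 404 and 396 CPM (0.40, SE 0.06, adjusted p = 0.0132). In both genes the groups were apart, with increases of 1.40-fold for ITGA6 and 1.32-fold for LAMA3. LAMB3, the beta chain of the same laminin, was at 170, 169 and 151 CPM and at 196, 226 and 189 CPM, and ITGB4 at 271, 295 and 258 CPM and at 379, 445 and 297 CPM. Neither passed (0.32, adjusted p = 0.185, and 0.44, adjusted p = 0.188), although both groups were apart. FERMT1 (kindlin-1), which activates integrins in epithelial cells, rose by 0.44 (adjusted p = 0.0328), and TES (testin), a focal adhesion protein, by 0.40 (adjusted p = 0.0109). ITGA6, LAMA3, FERMT1 and TES each passed in 2 of the 6 fits that left out 1 library. All of these calls were lost without CD44 High replicate 1 or any 1 parental library. The LAMA3 promoter is shown because it holds a pair of AP-1 matches, in capitals, at -125 to -119 and at -69 to -63 (RefSeq, GRCh38.p14, plus strand, chr18:23872770-23873019).
LAMA3: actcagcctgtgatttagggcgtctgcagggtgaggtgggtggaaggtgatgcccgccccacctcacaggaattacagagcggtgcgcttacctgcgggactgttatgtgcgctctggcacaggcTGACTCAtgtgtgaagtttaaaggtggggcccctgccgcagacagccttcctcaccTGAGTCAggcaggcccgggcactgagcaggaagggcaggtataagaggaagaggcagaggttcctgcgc
AP-1 matches (TGANTCA, both strands) occurred in 4 of the 27 called higher genes with a promoter, ABL2, IFRD1, IGF2BP2 and LAMA3 (14.8%, 95% Wilson interval 5.92 to 32.5), against 9.37% of all genes.

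Of 21 basal urothelial genes tested 2 were called higher, ITGA6 among them, against 0.249% of all genes tested, and the median log2 fold change was 0.09. KRT5, the basal keratin, was at 611, 597 and 493 CPM in parental and at 692, 703 and 628 CPM in CD44 High cells (0.25, adjusted p = 0.412), with the groups apart. KRT17 was at 2000.5, 2123 and 1765 CPM and at 1482, 2165 and 1692 CPM (-0.14, adjusted p = 0.692), with overlap. TP63, the basal transcription factor, was at 138 to 139 and 138 to 146 CPM (0.03, adjusted p = 0.942). Both calls on the list were lost without CD44 High replicate 1 or any 1 parental library, and in the fit on the 6 libraries alone.

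**Figure D2:**
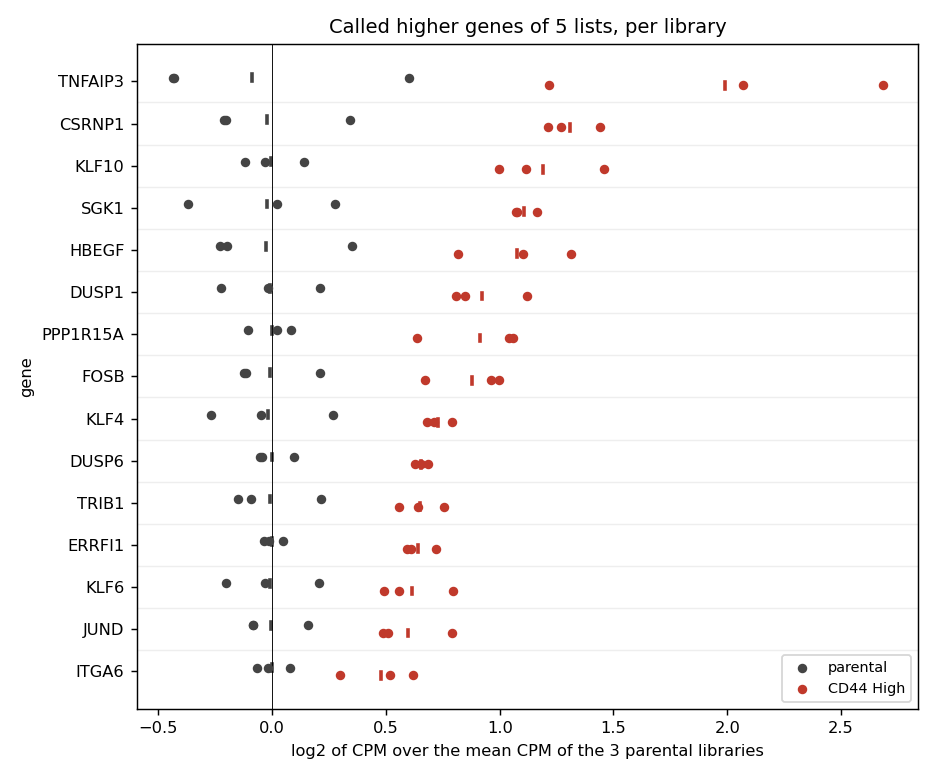
Called higher genes of 5 lists (NF-kB, immediate-early, ERK feedback, EGFR ligands, basal) are drawn per library as the log2 of the CPM over the mean of the 3 parental libraries, with the mean of each group as a short bar. In every gene the 3 CD44 High points lie to the right of the 3 parental points, from TNFAIP3 at the top to ITGA6 with a change of 0.49 at the bottom.

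Other called increases were in genes of varied function, of which OVOL1 is on a list. IRS2, an adaptor of the insulin receptor, was at 6.53, 5.52 and 7.08 CPM in parental cells and at 13.9, 14.1 and 12.2 CPM in CD44 High (1.07, SE 0.14, adjusted p = 0.00444), and passed in all 6 fits that left out 1 library. HMGA2, a chromatin protein of embryonic and tumour cells, was at 14.5, 9.52 and 11.8 CPM and at 27.5, 19.6 and 26.0 CPM (1.04, SE 0.20, adjusted p = 0.0405). In neither gene did the groups overlap, but HMGA2 passed in 1 of those 6 fits. IGF2BP2, an mRNA-binding protein whose gene is activated by HMGA2, rose by 0.43 (adjusted p = 0.0498). SHISA2 rose by 0.99 (adjusted p = 0.0199), GPR39, a zinc-sensing receptor, by 0.90 (adjusted p = 0.0139), ABL2, a tyrosine kinase that acts on actin, by 0.83 (adjusted p = 0.00649) and WNT11, a ligand of the non-canonical WNT pathway, by 0.76 (adjusted p = 0.0181). OVOL1, a repressor that holds cells in the epithelial state, was the 1 called gene of 20 epithelial genes tested (0.80, adjusted p = 0.0498). Of all genes tested 0.249% were called higher. OVOL1 passed in none of the 6 fits.

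A few low-count increases carry a limit. EID3 rose by 1.64 (adjusted p = 0.0405), from 2.89, 1.43 and 1.39 CPM to 8.23, 3.996 and 5.37 CPM. FABP5P9, by its name a copy of FABP5, rose by 1.55 (adjusted p = 0.0132) and LOC100421438, a locus known by its number only, by 1.32 (adjusted p = 0.0349). Reads of a copy can come from the parent gene, so the counts of FABP5P9 are uncertain. Whether LOC100421438 is such a copy was not settled here.

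The decreases outside the small RNA families included KRT13, KRT4, CEACAM5, HPGD and DHRS2, none of which is on a list. KRT13, the keratin of the intermediate layer and by far the most abundant called gene, was at 4298, 4158 and 4016 CPM in parental cells and at 3115, 3281 and 3437 CPM in CD44 High (-0.34, SE 0.06, adjusted p = 0.0385). KRT4, a keratin of non-cornified epithelia, was at 428, 489 and 450 CPM and at 246, 291 and 250 CPM (-0.80, SE 0.14, adjusted p = 0.0209). CEACAM5, a surface adhesion molecule, was at 21.6, 25.3 and 30.4 CPM and at 9.85, 14.5 and 13.05 CPM (-1.05, SE 0.20, adjusted p = 0.0425). In all 3 genes the CD44 High libraries lay below every parental one. HPGD, the enzyme that inactivates prostaglandin E2, was at 38.5, 43.0 and 54.5 CPM and at 19.3, 24.99 and 27.4 CPM (-0.92, SE 0.18, adjusted p = 0.0453). DHRS2, a short-chain dehydrogenase, was at 10.9, 11.6 and 10.9 CPM and at 4.93, 5.35 and 5.51 CPM (-1.08, SE 0.15, adjusted p = 0.00649). DHRS2 passed in 5 of the 6 fits that left out 1 library and the other 4 in at most 2, with adjusted p values of up to 0.18 for KRT13, 0.151 for KRT4, 0.22 for CEACAM5 and 0.217 for HPGD.

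The remaining decreases were in SPTSSB, a subunit of serine palmitoyltransferase (-1.17, adjusted p = 0.0349), SYNGR1, a synaptic vesicle protein (-0.82, adjusted p = 0.0221), GPR160, an orphan receptor (-0.77, adjusted p = 0.0453), and RGS3, a regulator of G protein signalling (-0.55, adjusted p = 0.0366). CNGA1 and LIN7A fell by 1.32 and 1.35 from low levels of 4.03 ± 0.716 and 2.64 ± 0.448 CPM. VMP1, an autophagy protein whose gene holds the microRNA gene MIR21, fell by 0.48 (adjusted p = 0.0438). LIN7A holds MIR617 and MIR618. Counts per gene symbol do not separate such RNAs from the host. CD96 had 25 counts over the 3 parental libraries and 0 over the 3 CD44 High libraries, which makes it at least 7.64-fold lower when the CD44 High group is set to 3 counts. CD96, RGS3 and CNGA1 passed in none of the 6 fits that left out 1 library. SYNGR1, GPR160, LIN7A and VMP1 each passed in 1 of them, and SPTSSB in 2.

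Of 23 luminal urothelial genes tested, which include the uroplakins but not KRT13 or KRT4, none was called by edgeR. An unadjusted p under 0.05 was found for 5 (12.3% over all genes tested), and 16 had a log2 fold change below 0 (median -0.11). DESeq2 called 1 lower. KRT7 was at 4458, 4643 and 4122 CPM in parental and at 3671, 3996 and 4298 CPM in CD44 High cells (-0.14, adjusted p = 0.422), and KRT19 at 2494, 2518 and 2556 CPM and at 1990, 2125 and 2310 CPM (-0.24, adjusted p = 0.339). In both keratins replicate 3 was the CD44 High library nearest to the parental ones. Without it 3 luminal genes passed, UPK1A, UPK1B and CYP2J2, all lower.

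**Figure D3:**
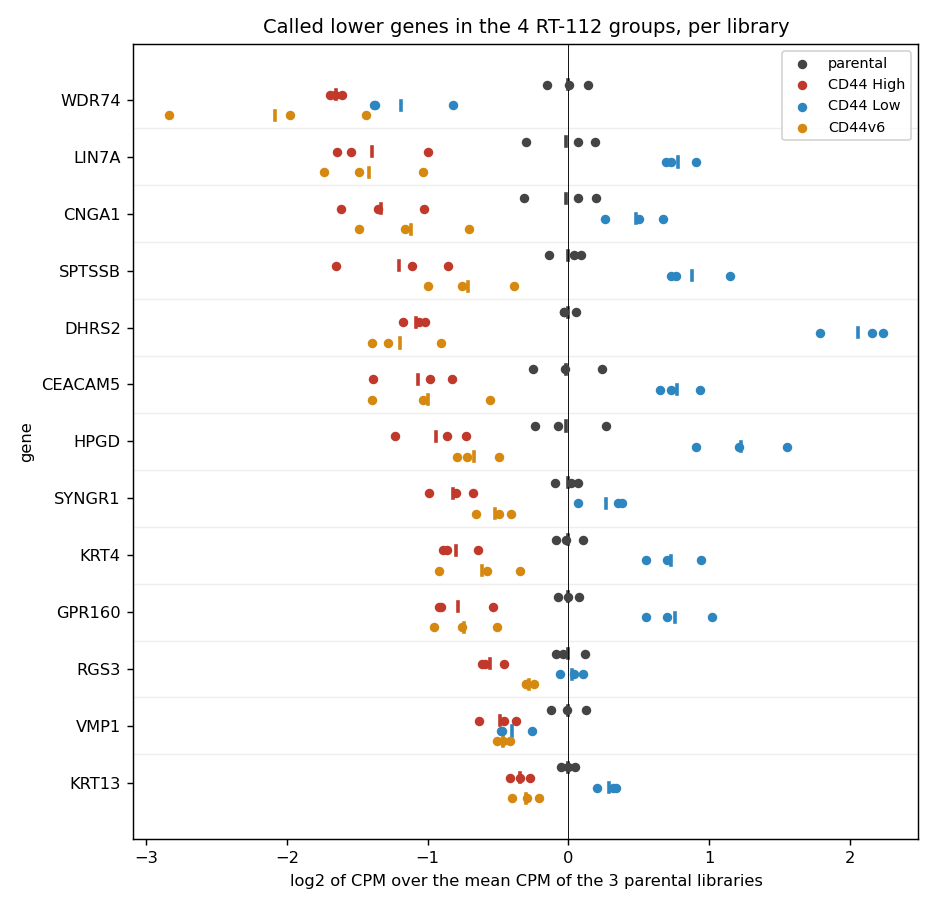
Called lower genes outside the small RNA families are drawn per library in the 4 RT-112 groups as the log2 of the CPM over the parental mean, with group means as short bars; CD96, with 0 counts in CD44 High, is left out. CD44 High points lie below 0 in every gene, CD44v6 points lie on the same side, and CD44 Low points lie above 0 except in WDR74, VMP1 and 1 library of RGS3, with DHRS2 highest at a fitted change of 2.07.

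Small non-coding RNAs formed the other body of decreases, with 27 of the 41. All 16 SNAR genes tested fell, of 28 in the count table. These RNA polymerase III transcripts bind the double-stranded RNA-binding protein NF90. SNAR-A14, for example, was at 1.94 to 2.26 CPM in parental and 0.0942 to 0.225 CPM in CD44 High cells. A gene that enters the test through its parental counts can hardly do other than fall, so the count of 16 adds nothing to the sum. Summed over all 28, tested or not, their level was 68.2, 59.5 and 55.1 CPM in the parental libraries and 2.70, 5.01 and 3.34 CPM in CD44 High, a ratio of the means of 16.5. SNAR-A11, the most abundant, had 301, 340 and 324 counts in parental cells and 9, 24 and 13 counts in CD44 High (-4.26, SE 0.30, adjusted p = 2.3e-05). Of the 16, 12 passed in all 6 fits that left out 1 library. The copies are nearly identical, and 6 of them had the same 3 counts in the CD44 High libraries, so they are better read as 1 family than as 16 results. When genes averaging under 50 counts were removed, 1 SNAR gene remained among the calls.

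Spliceosomal small nuclear RNAs fell with them. Their sum was 745, 644 and 646 CPM in parental cells and 204, 249 and 210 CPM in CD44 High, a ratio of 3.07. Of 30 tested, 6 were called lower, against 0.262% of all genes tested: RNU1-1, RNU1-2, RNU1-3 and RNU1-4, which encode the U1 RNA, and RNU2-6P and RNU4-2. U1 is shown because its 4 called gene copies have the same sequence of 164 bases in GENCODE 29, so that no read can be assigned to 1 of them. Capitals mark the bases, at positions 3 to 11 from the 5′ end, that pair with the 5′ splice site of introns.
RNU1-1: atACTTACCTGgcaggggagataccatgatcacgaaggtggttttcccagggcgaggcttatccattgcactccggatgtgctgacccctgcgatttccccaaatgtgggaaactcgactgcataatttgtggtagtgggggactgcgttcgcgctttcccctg
RNU1-1 was at 145, 137 and 141 CPM in parental cells and at 40.6, 52.8 and 41.9 CPM in CD44 High (-1.64, SE 0.31, adjusted p = 0.0402), with wide separation. None of the 4 U1 copies passed in any of the fits that left out 1 library, and without CD44 High replicate 1 or parental replicate 1 no small nuclear RNA was called. DESeq2 called 12 small nuclear RNA genes lower.

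WDR74, a ribosome assembly factor, had the largest decrease outside these families after CD96. It was at 1469, 1338 and 1201 CPM in parental and at 423, 438 and 413 CPM in CD44 High cells (-1.65, SE 0.26, adjusted p = 0.0132). The U2 small nuclear RNA gene RNU2-2 lies at the end of WDR74 in the RefSeq annotation, and the counts do not tell the 2 apart. Of 3 Y RNA genes tested, RNY3 (-2.502, adjusted p = 0.0193) and RNY3P1 (-2.69, adjusted p = 0.0117) fell, and of 13 tRNA genes TRA-TGC7-1 (-2.72, adjusted p = 0.0264). Of 156 small nucleolar and Cajal body RNAs, SNORA21 (-2.28) and SNORD17 (-1.73) fell, and the family sum was 4579 ± 1339 against 1980 ± 92.1 CPM. Of all genes tested 0.262% were called lower by edgeR. DESeq2 called 2 Y RNA genes, 4 tRNA genes and 15 small nucleolar and Cajal body RNAs lower.

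The long polymerase III transcripts did not pass. Signal recognition particle and 7SK RNAs summed to 79126 ± 5533 CPM in parental and 62067 ± 3749 CPM in CD44 High cells (0 of 30 called by edgeR, 2 by DESeq2, 20 with an unadjusted p under 0.05). Over all genes tested, 12.3% had an unadjusted p under 0.05 by edgeR. Messenger RNAs of ribosomal proteins stood at 44693 ± 1812 and 43911 ± 1092 CPM, a ratio of 1.02, with 0 of 77 called by edgeR or DESeq2 and 4 at an unadjusted p under 0.05. How much of each short RNA is recovered depends on extraction and size selection of a library, and its part in these values was not tested. The small RNA families, without the signal recognition particle and 7SK RNAs, summed to 4266 to 6971 CPM in parental and 2121 to 2355 CPM in CD44 High libraries. In the other RT-112 lines the SNAR sum was 5.15 ± 1.58 CPM (CD44 Low) and 4.53 ± 0.309 CPM (CD44v6), and the small nuclear RNA sum 276 ± 107 and 193 ± 84.1 CPM, and in both sums every parental library lay above every library of the 3 other lines.

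**Figure D4:**
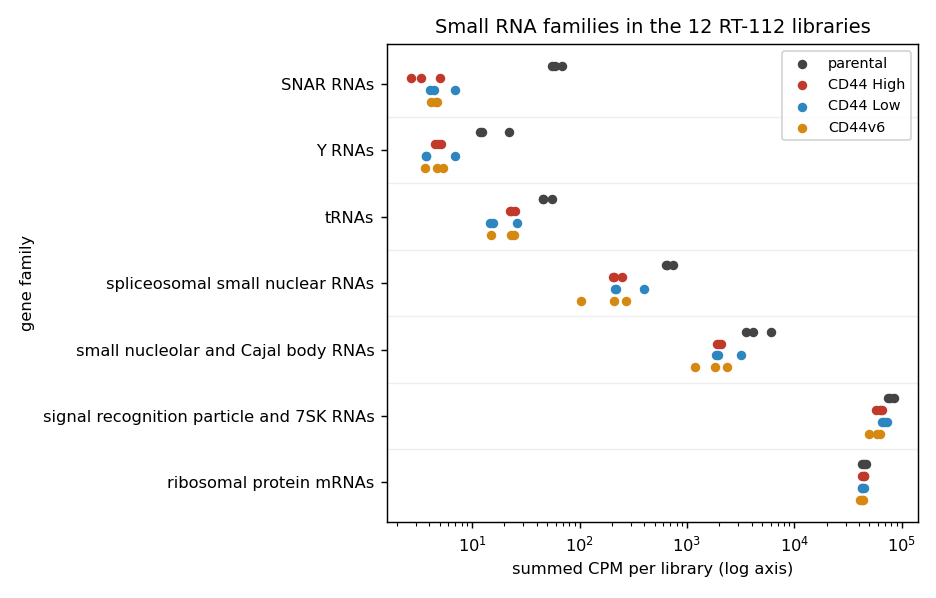
Each point is the summed CPM of a gene family in 1 of the 12 RT-112 libraries, on a log axis. Parental libraries lie to the right of the CD44 High libraries in every small RNA family, from SNAR RNAs (a ratio of means of 16.5) to the signal recognition particle and 7SK RNAs (1.27), whereas the ribosomal protein messenger RNAs (1.02) overlap.

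Most other lists had no called member. The ligands, partners and hyaluronan enzymes of CD44 (13 tested) had a median of 0.04, with 0 at an unadjusted p under 0.05 and 0 called by DESeq2. Ezrin (EZR), which ties CD44 to actin, was at 1126, 1184 and 1186 CPM in parental and at 1486, 1561 and 1115 CPM in CD44 High cells (0.25, adjusted p = 0.472), with replicate 3 below all parental libraries. Of 18 splicing regulators of CD44, 15 had a log2 fold change above 0 with a median of 0.08, 5 had an unadjusted p under 0.05 and DESeq2 called 0. ESRP1, which favours the variant exons, was at 211 to 226 and 204 to 243 CPM (0.02, adjusted p = 0.947). No called member was found by edgeR among 12 mesenchymal genes (median -0.12), 11 integrins outside the basal list (0.03), 22 matrix proteases and inhibitors (0.05), 23 YAP and TEAD targets (0.17), 8 genes of the adenosine pathway (-0.02) or 50 replication-dependent histones (-0.16). Their members with an unadjusted p under 0.05 numbered 4, 1, 4, 7, 2 and 7, against a share of 12.3% over all genes tested. DESeq2 called 1 protease gene in each direction, 1 adenosine pathway gene and none in the other 4 lists. FN1, fibronectin, was at 323 ± 36.8 and 538 ± 202 CPM (0.74, adjusted p = 0.2). NT5E (CD73), which makes adenosine, was at 49.7, 38.5 and 41.4 CPM and at 93.1, 52.8 and 91.2 CPM (0.87, adjusted p = 0.0618), with replicate 2 the lowest of the CD44 High libraries. SNAI2 was at 133 ± 5.78 and 108 ± 9.62 CPM (-0.30, adjusted p = 0.283).

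Cell cycle and housekeeping lists were also without calls by edgeR: 25 genes of mitosis, 27 of DNA replication, 11 G1 cyclins and CDK inhibitors, 24 of interferon response and antigen presentation, 24 of lipid synthesis, 24 of glycolysis and hypoxia, 20 of the unfolded protein response, 13 heat shock, 22 of drug handling, 22 NRF2 targets and 8 stem-like genes. Their medians ran from -0.07 to 0.09. In that order 6, 2, 0, 5, 3, 4, 4, 2, 3, 8 and 2 of their genes had an unadjusted p under 0.05, which held for 12.3% of all genes tested. DESeq2 called 3 of mitosis, 3 of interferon response and 1 stem-like gene. The replicates of CD44 High were spread in the mitosis genes, as CENPF shows, a kinetochore protein of dividing cells. It was at 1490, 1529 and 1557 CPM in parental cells and at 1226, 354 and 2246 CPM in CD44 High replicates 1, 2 and 3 (-0.26, adjusted p = 0.847). Replicate 2 was far below and replicate 3 above the parental range.

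CD44 High was set beside the other RT-112 lines for the called genes. These comparisons share libraries and 1 fit with the one above, so neither their values nor their adjusted p are independent of it. Against parental cells 3.2% of all genes tested were called in CD44 Low and 0.614% in CD44v6. KRT4 stood at 456 ± 30.9 CPM in parental cells, 263 ± 24.9 CPM in CD44 High, 302 ± 58.9 CPM in CD44v6 and 761 ± 104 CPM in CD44 Low. DHRS2 stood at 11.1 ± 0.381, 5.26 ± 0.301, 4.92 ± 0.906 and 46.9 ± 7.37 CPM in the same order, and HPGD at 45.3 ± 8.27, 23.9 ± 4.12, 28.6 ± 3.16 and 108 ± 24.1 CPM. For these genes CD44 Low lay above parental cells and both other lines below. VMP1, at 201 CPM in parental and 144 CPM in CD44 High cells, was also lower in CD44 Low (153 ± 13.3 CPM, -0.40, adjusted p = 0.0377) and in CD44v6 (146 ± 4.61 CPM, -0.46, adjusted p = 0.0471). WDR74 was lower in CD44 Low too, at 595 ± 141 CPM (-1.17, adjusted p = 0.0284). ITGA6 stood at 632 ± 32.9 CPM in parental cells, 885 ± 97.8 CPM in CD44 High, 788 ± 37.9 CPM in CD44v6 and 433 ± 31.1 CPM in CD44 Low, and HMGA2 at 11.9 ± 2.47, 24.4 ± 4.22, 18.7 ± 1.59 and 3.54 ± 1.05 CPM. For ITGA6 and HMGA2 the order was the opposite. KLF4, TRIB1 and PPP1R15A were higher than parental in all 3 derived lines: PPP1R15A stood at 290 ± 19.2 CPM in parental cells, 551 ± 86.9 CPM in CD44 High, 523 ± 50.05 CPM in CD44v6 and 472 ± 68.5 CPM in CD44 Low. The same held for CSRNP1, KLF10 and DUSP1, whereas FOSB and SGK1 stayed nearer to parental cells in CD44 Low. The immediate-early list summed to 3388 to 3860 CPM in parental and 4410 to 5554 CPM in CD44 High libraries. It summed to 4858 to 5204 CPM in CD44v6 and 4354 to 5077 CPM in CD44 Low, so its rise was not particular to CD44 High. Between CD44 High and CD44v6 themselves none of the 80 genes was called by edgeR (5 had an unadjusted p under 0.05) or by DESeq2, which does not show that they were equal.

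The same genes were then read in J82, whose libraries are separate from those of RT-112. Of the 39 called higher genes 37 were tested there; 36 had a log2 fold change above 0 in J82 CD44 High against J82 parental cells (median 0.62) and 15 were called higher. Over all 15951 genes tested in J82, 50.5% lay above 0 and 2.94% were called, 1.71% higher and 1.23% lower. Among them were CSRNP1, DUSP1, DUSP6, ERRFI1, FERMT1, FOSB, HMGA2, ITGA6, KLF10, KLF4, PMAIP1, PPP1R15A, TNFAIP3 and TRIB1. ITGA6 rose in J82 from 144 ± 12.1 to 198 ± 7.78 CPM (0.46, adjusted p = 0.0157). FOSB rose from 14.1 ± 6.92 to 73.3 ± 24.02 CPM (2.37, adjusted p = 0.00325).

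Not all of the decreases could be tested in J82. Of the 14 outside the small RNA families 8 were tested, with VMP1 called lower and RGS3 called higher, and KRT13, KRT4 and CEACAM5 had no count in any of the 6 J82 libraries. Of 27 small RNA genes 12 were tested and 1 was called, TRA-TGC7-1 (-2.20, adjusted p = 0.031). Most of the decreases tested did not fall in J82. Of the 8 other genes 5 had a log2 fold change above 0 there (median 0.45). Of the 12 small RNA genes 7 did (median 0.37), against 50.5% of all genes tested in J82. The U1 copy RNU1-1 stood at 78.6 ± 22.4 CPM in J82 parental cells and at 162, 159 and 34.3 CPM in J82 CD44 High cells, with replicate 3 far below the others (0.59, adjusted p = 0.773). SNAR-A11 was at 0.873 ± 0.317 and 0.0930 ± 0.0810 CPM there (-3.12, adjusted p = 0.0827).

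Whether a change differed between the 2 lines was asked with an interaction term fitted to all 24 libraries, and 42 of 17438 genes passed (0.241%), 11 with the more positive change in RT-112 and 31 in J82. FOS rose in J82 from 34.6 ± 12.05 to 195 ± 48.2 CPM, and its change in RT-112 was lower by 2.04 on the log2 scale (SE 0.31, adjusted p = 0.00458). JUNB, at 186 and 166 CPM in RT-112, rose in J82 from 37.2 ± 1.91 to 109 ± 18.7 CPM (difference -1.71, SE 0.26, adjusted p = 0.00458). CDH1, E-cadherin, stood at 319 and 309 CPM in RT-112 and fell in J82 from 2.56 ± 0.236 to 0.513 ± 0.0359 CPM (difference 2.25, SE 0.20, adjusted p = 4.4e-06). The count of 42 became 17 and 109 without RT-112 CD44 High replicate 1 and 3, and 23, 12 and 23 without RT-112 parental replicate 1, 2 and 3. Without J82 CD44 High replicate 1 or 2 it was 23 or 20, and without J82 parental replicate 1 or 2 it was 14 or 15. For TNFAIP3 and ITGA6 no difference between the lines was detected (-0.10, SE 0.54, and 0.03, SE 0.12).

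**Figure D5:**
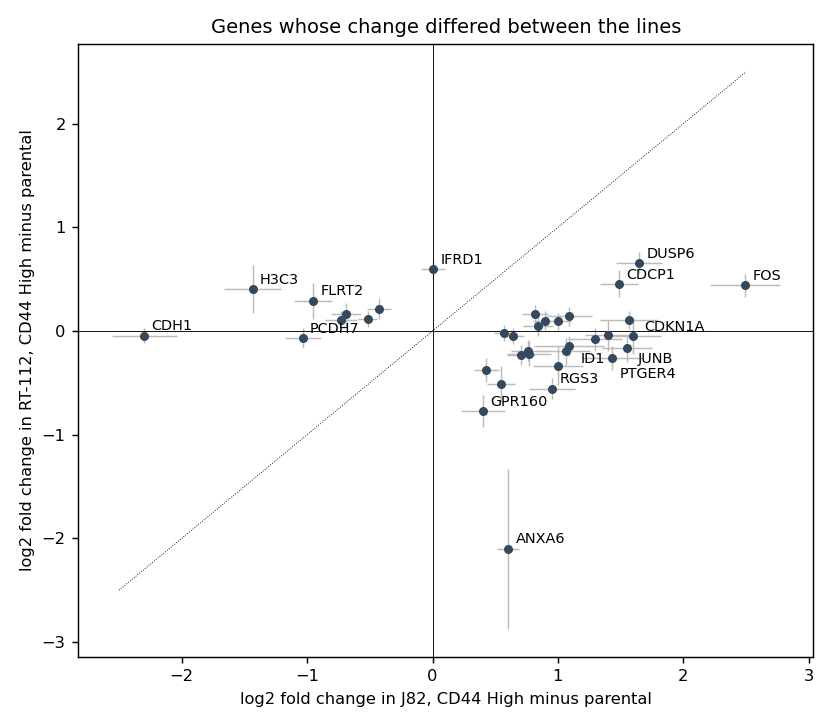
Of the 42 genes whose change differed between the lines, the 36 with a measurable change in both are drawn, with the log2 fold change in J82 on the x axis and in RT-112 on the y axis; bars are standard errors and the dotted line marks equal change. Most points lie near 0 on the RT-112 axis and away from 0 on the J82 axis, such as FOS at 2.49 in J82 and 0.44 in RT-112.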

How the data were processed

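RNA from 12 RT-112 and 12 J82 libraries was compared through 1 table of whole-number read counts per gene symbol, as deposited by the authors with no scaling. Per the labels' protocols, a kit based on columns gave total RNA, which a service company sequenced. The submitters' processing notes name HISAT2, StringTie and the GRCh37 build, without their role in the counts; strand and annotation are not given in the sources used here. Every column was mapped to a sample by its name. Of 35993 symbols, 34000 (94.5%) matched the RefSeq table.

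Counts were tested with edgeR 4.0.16 (R 4.3.3): filterByExpr, TMM scaling, the quasi-likelihood F test on the 12 RT-112 libraries with group as the only term, and Benjamini-Hochberg adjustment over 15645 genes with a threshold of 0.05. CPM values use the scaled library sizes. Each standard error (SE) was derived from the test, as the absolute log2 fold change over the square root of its F statistic. The difference between lines was an interaction contrast over 24 libraries. The script was tested on simulated counts. Alternatives were other scalings, other filters, DESeq2 1.42.0, the 6 libraries alone, a replicate block, a minimum change and leaving out each library. Same-numbered libraries did not pair (correlations of -0.02, 0.01 and 0.07). Promoters came from RefSeq GRCh38.p14 and the U1 sequence from GENCODE 29, and 40 called genes had a promoter entry; no coordinates were taken from the counts.

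Named genes were CD44, the 14 largest called changes in each direction (average log2 CPM 1 or more), called members of lists, the 2 most abundant members of lists with fewer than 2 calls, and the 6 largest interaction differences. Other genes named were chosen after their values were seen, among them FOS, JUN, JUNB, EGR1, MYC, BTG2, KRT5, KRT17, TP63, LAMB3, ITGB4, LAMA3, FERMT1, TES, IGF2BP2, OTULIN, NT5E, ESRP1, CDH1 and CD96. The genes and lists were chosen with earlier results of these data known. A called list member is not reported here.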

Additional observations from a re-analysis of the deposited data

Results flagged for a closer look

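The change between CD44 High and parental cells differed between RT-112 and J82 for 42 genes by the interaction contrast (edgeR), and the genes below are given because that test of the difference passed. Among the genes called in RT-112, DUSP6 had a smaller increase there than in J82 (difference -0.99, adjusted p = 0.048). IFRD1 rose in RT-112 by 0.60 (adjusted p = 0.0111) and had a change of 0.00 in J82 (adjusted p = 0.994), a difference of 0.60 (adjusted p = 0.0466). RGS3 fell in RT-112 by 0.55 (adjusted p = 0.0366) and rose in J82 by 0.95 (adjusted p = 0.0147), a difference of -1.505 (adjusted p = 0.00374). GPR160 fell in RT-112 by 0.77 (adjusted p = 0.0453) and had a change of 0.40 in J82 (adjusted p = 0.275), a difference of -1.18 (adjusted p = 0.0305). In RT-112, DUSP6 and IFRD1 were called in 3 of the 6 fits that left out 1 library, GPR160 in 1 and RGS3 in none.

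The 6 largest differences each rest on a group with 0 counts, so the fitted values are no bounds. NRK (7.84) had 0 counts in RT-112 parental libraries and 14, 0 and 22 in CD44 High, against 1666, 1441 and 1312 and then 812, 524 and 716 in J82. ATP8A1 (-7.41) went from 5, 14 and 9 counts to 0 in RT-112 and from 21, 12 and 5 to 31, 27 and 34 in J82. ALDOC (-7.13), PAK6 (-6.89) and LINC01537 (-6.28) had 0 counts in J82 parental cells and 10, 17 and 6, 12, 21 and 22, and 9, 10 and 6 counts in J82 CD44 High. LINC00958 (5.59) had 0 counts in RT-112 parental cells and 3, 3 and 9 in CD44 High.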

How the results depend on the processing

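Neither CD44 nor any of the 80 called genes reversed its direction under the alternatives run. Some promoter shares did change sides of their background without CD44 High replicate 3. The kappa-B share of called higher genes went from 3.70% to 10.8%, against 7.09% of all genes with a promoter. The TEAD share of called lower genes went from 7.69% to 18.3%, against 16.7%. The count of 80 genes was 292 with DESeq2 (153 higher, 139 lower), 43 on the 6 libraries alone (11 higher, 32 lower), 44 with a minimum log2 fold change of 1 (10 higher, 34 lower), and 18 to 196 when 1 library was left out. The 44 called list genes became 24 with a mean of at least 50 counts and 90 with DESeq2, and 15 to 51 without 1 library. The 42 interaction genes became 12 to 109 without 1 library. The cause was not tested, except that fewer genes or libraries enter some of these fits. With the replicate block 59 genes were called (31 higher, 28 lower), of which 54 were among the 80, 39 list genes and 40 interaction genes; the numbers did not pair the libraries. CD44 passed in none of the alternatives (adjusted p from 0.16 to 0.582). With 3 libraries a group, the spread among CD44 High libraries and low counts, as in the SNAR copies with 1 to 24 counts, limit the precision.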

Other observations

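Without CD44 High replicate 3, the library nearest to the parental ones on the first principal component, 196 of 15787 genes were called (1.24%), 97 higher and 99 lower, and 67 of them were among the 80. The genes below were picked from that fit after their values were seen. CD109, a surface protein that binds TGF-beta, was at 10.8, 13.2 and 11.1 CPM in parental cells and at 34.4, 26.7 and 7.39 CPM in CD44 High replicates 1, 2 and 3. FABP4, a fatty acid carrier of the urothelium, was at 1893, 1664 and 1544 CPM and at 649, 568 and 1710 CPM. UPK1B, a uroplakin of the surface cells, was at 491, 483 and 483 CPM and at 343, 368 and 504 CPM. In all 3 genes replicates 1 and 2 lay on 1 side of the parental range, while replicate 3 lay within it or beyond it on the other side.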
